A study of Homo sapiens with 6 samples.

Results

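The 5 long non-coding RNAs (lncRNAs) LINC02864, MIR663AHG, LINC00619, LINC02393 and LINC01606 had higher array values in SUM159 breast cancer cells carrying an shRNA against spinophilin than in SUM159 cells carrying a scrambled shRNA. Members were found by symbol, in the platform annotation or through the gene identifier in RefSeq, and each matched 1 transcript cluster, so that 5 of 53617 transcript clusters are described. A transcript cluster is the set of probes that the array combines into a single value. The names were picked because their values were higher in the silenced cells on the same arrays, and the difference between the groups is therefore given below as a description without a p-value. SUM159 is a breast cancer line used as a basal-like model, and both groups had been stably transduced with lentiviral particles and selected with puromycin. Of the silenced cells and of the control cells 3 samples each were measured, labelled 1, 2 and 2d, on Affymetrix Human Gene 2.0 ST arrays. The methods call the samples biological triplicates, but nothing explains the letter d or says whether a sample was a transduction of its own, so the p-values below rest on variation among 6 samples that may be partly technical. The targeted gene itself was not analysed here, and the degree of silencing is not given by these values.

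LncRNAs are transcripts without a long open reading frame. Some act in the nucleus on chromatin and on nearby genes, others bind proteins or microRNAs, and some serve mainly as precursors from which a microRNA is cut. Many lncRNA genes are expressed in few tissues, with testis and brain among the most permissive, and are silent or nearly silent in most differentiated cells, where chromatin marks hold transcription down and the nuclear exosome removes transcripts that are made. Tumor cells often express lncRNA genes that their tissue of origin does not use.

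The 5 genes lie on 5 chromosomes (positions from RefSeq on GRCh38.p14). LINC02864 is at chr18:73154058-73264498, MIR663AHG at chr20:26187019-26209233, LINC00619 at chr10:43845306-43850622 and LINC02393 at chr12:127881617-127898639, while LINC01606 is placed with its values further on. Their annotated lengths differed widely, from 5317 bases for LINC00619 to 110441 bases for LINC02864. MIR663AHG is the host gene of the microRNA miR-663a. LINC01606 has been reported in gastric and colon cancer cells to raise Wnt/beta-catenin signalling, while LINC00619 was formerly listed as an open reading frame of chromosome 10 (C10orf136).

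The hairpin of miR-663a lies inside MIR663AHG, 955 bases past the start site of the host. Its mature sequence is shown with that of miR-663b, whose gene MIR663B is on chromosome 2 and has a transcript cluster of its own, because the names differ by 1 letter and the loci are separate. Capitals mark the seed, bases 2 to 8, by which a microRNA pairs with its targets.
hsa-miR-663a: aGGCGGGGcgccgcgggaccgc
hsa-miR-663b: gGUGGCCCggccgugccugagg
The seeds differ. In RefSeq, 3 other mature microRNAs have the seed of miR-663a, namely miR-1908-5p, miR-6787-5p and miR-10396b-5p, and none of the 2545 mature entries shares that of miR-663b.

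RefSeq promoter windows, from 250 bases before to 50 bases after the start site, were matched for 3 of the 5 genes. They are shown because the start regions of these genes differ widely in composition. Capitals mark CpG dinucleotides, the sites of DNA methylation. The windows are chr20:26209184-26209483 (minus strand) for MIR663AHG, chr10:43845056-43845355 (plus strand) for LINC00619 and chr12:127881367-127881666 (plus strand) for LINC02393.
MIR663AHG: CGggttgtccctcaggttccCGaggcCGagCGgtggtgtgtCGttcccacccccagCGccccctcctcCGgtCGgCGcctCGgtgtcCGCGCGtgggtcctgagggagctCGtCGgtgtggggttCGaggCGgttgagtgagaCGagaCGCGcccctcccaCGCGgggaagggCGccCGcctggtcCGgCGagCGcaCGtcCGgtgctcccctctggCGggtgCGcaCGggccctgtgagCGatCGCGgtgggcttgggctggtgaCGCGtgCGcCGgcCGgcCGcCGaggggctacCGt
LINC00619: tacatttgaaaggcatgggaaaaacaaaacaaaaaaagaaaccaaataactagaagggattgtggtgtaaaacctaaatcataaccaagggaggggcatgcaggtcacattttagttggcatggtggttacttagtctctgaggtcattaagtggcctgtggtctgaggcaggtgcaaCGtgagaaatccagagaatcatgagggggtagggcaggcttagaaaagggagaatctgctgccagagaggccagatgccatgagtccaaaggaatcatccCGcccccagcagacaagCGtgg
LINC02393: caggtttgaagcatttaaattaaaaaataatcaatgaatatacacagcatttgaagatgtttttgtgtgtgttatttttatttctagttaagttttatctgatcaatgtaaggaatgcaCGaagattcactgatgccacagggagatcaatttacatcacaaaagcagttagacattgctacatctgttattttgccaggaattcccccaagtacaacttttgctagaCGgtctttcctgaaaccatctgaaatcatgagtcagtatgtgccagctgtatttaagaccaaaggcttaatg
The MIR663AHG window held 43 CpG dinucleotides and was 75.3% G or C, and 95.1% of 27303 human promoter windows held fewer CpG. The LINC00619 window held 3 CpG at 47.3% G or C. The LINC02393 window held 2 CpG at 34.7% G or C, and 4.25% of all windows had a lower G and C share. The median window held 14.0 CpG at 58.3% G or C, so that MIR663AHG lay on the CpG-rich side and the other windows on the CpG-poor side.

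On both strands of these windows, 5 motifs were searched. The AP-1 motif TGACTCA had 1 match, in reverse as TGAGTCA, 6 bases past the start site of LINC02393, and occurs in 4.92% of all windows. The GC box GGGCGG had 1 match, in reverse 27 bases past the start site of LINC00619, and occurs in 44.6% of all windows. The TATA box TATAAA, the CCAAT box CCAAT and the E-box CACGTG had no match in the 3 windows, against 12.0%, 35.7% and 7.44% of all windows. No motif was shared between the genes. No other promoter window contained a stretch of 25 bases from any of the 3 windows. This search covers the windows alone, and probes elsewhere in MIR663AHG may still match related copies.

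LINC02864 had the largest difference of the 5. Its log2 expression was 4.41, 4.76 and 4.66 on control arrays 1, 2 and 2d, and 6.50, 6.51 and 6.63 on silenced arrays 1, 2 and 2d. The silenced arrays lay close together and the lowest of them was 1.74 above the highest control array on the log2 scale. The means were 4.61 ± 0.18 and 6.55 ± 0.071 (log2 expression, SD, n = 3 each), which is a difference of 1.94 (standard error 0.11) or 3.83-fold.

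MIR663AHG, the miR-663a host, was at 5.33, 5.36 and 5.84 on control arrays 1, 2 and 2d and at 6.95, 7.28 and 7.13 on the silenced arrays in the same order. Control array 2d stood above the other control arrays, and the groups were still 1.12 apart at their nearest values. The means of 5.51 ± 0.29 and 7.12 ± 0.17 (log2 expression, SD, n = 3 each) differed by 1.62 (standard error 0.16), or 3.06-fold. Without control array 2d the difference was 1.78.

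LINC00619 was at 6.21, 6.57 and 5.96 on control arrays 1, 2 and 2d and at 7.63, 8.09 and 7.77 on the silenced arrays in the same order. Array 2 was the highest of both groups, and the SD pooled over both groups, 0.272, was the widest of the 5 genes. The means of 6.25 ± 0.30 and 7.83 ± 0.24 (log2 expression, SD, n = 3 each) differed by 1.59 (standard error 0.18), or 3.0-fold, with 1.07 between the nearest values of the groups.

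LINC02393 was at 4.49, 4.85 and 4.73 on control arrays 1, 2 and 2d and at 6.04, 5.85 and 6.03 on the silenced arrays. Array 2 was the highest control array and the lowest silenced array. The means of 4.69 ± 0.18 and 5.97 ± 0.11 (log2 expression, SD, n = 3 each) differed by 1.28 (standard error 0.12), or 2.43-fold.

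LINC01606, the gene linked to Wnt signalling in other cancers, lies at chr8:57218276-57232954. It was at 4.86, 4.91 and 4.75 on control arrays 1, 2 and 2d and at 6.21, 6.0 and 5.96 on the silenced arrays. Its SD pooled over both groups was the smallest of the 5, at 0.111, with means of 4.84 ± 0.081 and 6.05 ± 0.13 (log2 expression, SD, n = 3 each). The difference was 1.21 (standard error 0.099), or 2.31-fold.

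**Figure D1:**
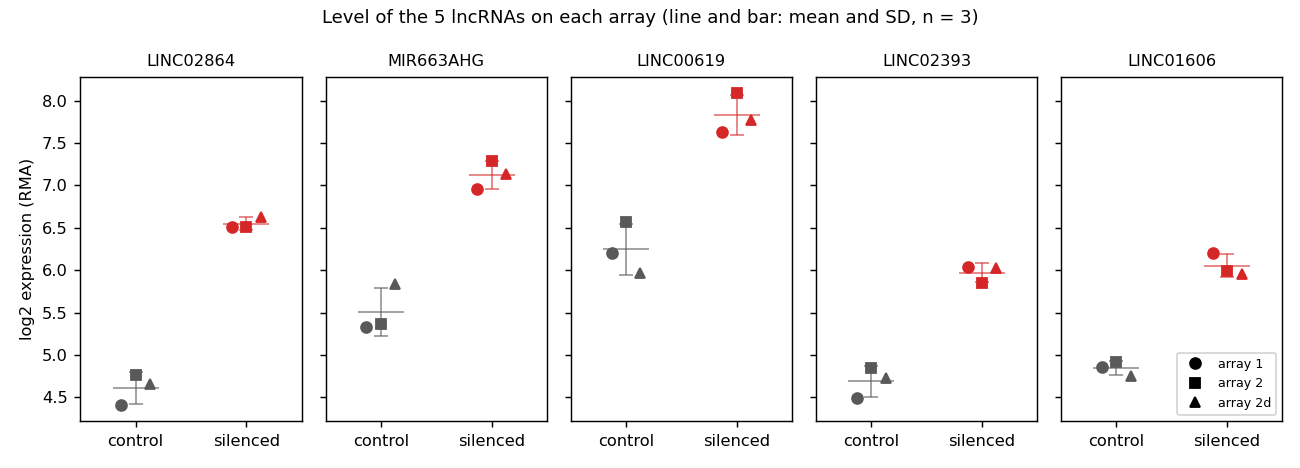
Log2 expression of the 5 lncRNAs on each array (vertical axis), with control arrays in grey and spinophilin-silenced arrays in red; marker shapes give the replicate label, and the line and bar give the mean and SD (n = 3). In every panel the 3 silenced arrays lie above the 3 control arrays, by 1.74 for LINC02864 and by 1.00 for LINC02393 at the nearest values.

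After Benjamini-Hochberg adjustment of the limma p-values across the whole array, 5 of the 5 lay under the threshold of 0.05 on the higher side, where 0.17% of all 53617 transcript clusters did, and 0 of the 5 on the lower side, where 0.0354% did. In 5 of the 5 every silenced array was above every control array, as in 6.43% of all transcript clusters, while 6.27% had every silenced array below every control array and 12.7% had no overlap in either direction. The threshold stated in the methods was an unadjusted p under 0.05 with a fold change of at least 1.5. By that rule the unmoderated test placed 5 of the 5 on the higher side, where 0.63% of all transcript clusters were, and with the replicate label as a block it placed 5 of the 5 there again, against 0.487%. After adjustment the unmoderated test called 0 of all 53617 transcript clusters, although 3764 had an unadjusted p under 0.05. These counts repeat the choice of the genes and are no evidence for it. Just inside the threshold lay LINC00619 (difference 1.59) and just outside it, among lncRNAs, LINC01116 (difference -0.62) and LINC01133 (difference 0.48). Leaving out control array 1, 2 or 2d brought the 5 calls to 1, 1 and 2, and leaving out silenced array 1, 2 or 2d brought them to 2, 1 and 2, while the differences themselves moved by less than the SD between arrays. LINC02864 passed in 6 of the 6 fits that left out 1 array, LINC01606 in 2, MIR663AHG in 1, and LINC02393 and LINC00619 in 0.

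The values do not show how much of each transcript was present. Array medians were 5.19 to 5.23 and lower quartiles 3.85 to 3.90 on the log2 scale. LINC02864, LINC02393 and LINC01606 lay below the array median on every control array and above it on every silenced array, and none of the 5 reached down to the lower quartile. Whether a transcript was detected at all cannot be read from RMA values, and none of the 5 can be called absent from control cells. In a cell population, moreover, more RNA per cell and more cells with the transcript cannot be told apart.

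The other lncRNAs of the array are the natural setting for these 5. A biotype is known only for transcript clusters with a symbol. On this array 37519 have no symbol, and any lncRNAs among those are left out here. In all, 1595 transcript clusters of 1398 genes carry the lncRNA biotype. Their median difference was -0.00207, against -0.00302 over all transcript clusters, and at an unadjusted p under 0.05 they passed in 6.33%, against 7.39% over all. By limma with adjusted p-values, 6 of them (0.376%) were higher and 0 lower, although 49 of the lncRNA transcript clusters were lower at an unadjusted p under 0.05. The 6 include the 5 genes chosen for being higher, which raises this share. Without them 1 of 1590 (0.0629%) was higher, against 0.17% of all transcript clusters. It was DSCR8, a non-coding gene of chromosome 21 that also carries a cancer-testis antigen name (CT25.1a) in RefSeq. All 3 silenced arrays exceeded all 3 control arrays in 6.08% of lncRNA transcript clusters, against 6.43% over all.

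DSCR8 was not among the names chosen, and its log2 values were 3.92, 4.20 and 3.95 on control arrays 1, 2 and 2d and 5.31, 5.07 and 5.02 on the silenced arrays. Its difference was 1.11 (standard error 0.12, adjusted p = 0.0249 from limma). Without any single array DSCR8 did not pass, with adjusted p-values of 0.0746 to 0.121 from limma.

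**Figure D2:**
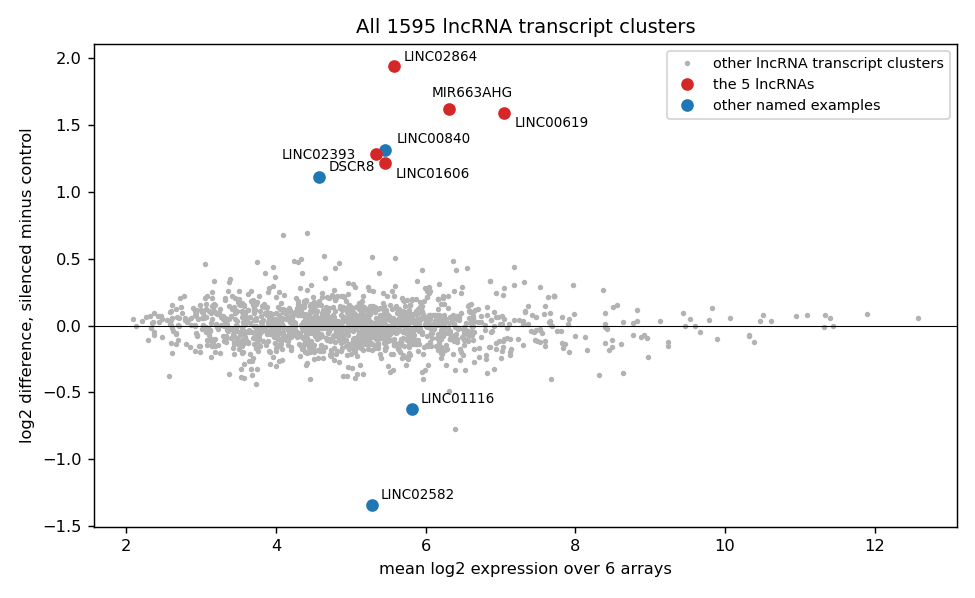
Difference between silenced and control cells (vertical axis, log2) against mean log2 expression over 6 arrays (horizontal axis) for the 1595 lncRNA transcript clusters, 1 point each. The 5 lncRNAs (red) lie between 1.21 and 1.94, LINC00840 and DSCR8 lie at 1.31 and 1.11, and LINC02582 lies lowest at -1.34.

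Among 47 measured lncRNAs that are well described in cell biology or cancer, such as MALAT1 and GAS5, none was higher or lower in limma. At an unadjusted p under 0.05, 2 were higher and 4 lower, together 12.8%, against 7.39% of all transcript clusters. The median of the list was 0.0208. The largest differences were those of LINC01116, at -0.62 (standard error 0.087, adjusted p = 0.0704 from limma), and of LINC01133, at 0.48 (standard error 0.082, adjusted p = 0.123 from limma). LINC01116 passed in 3 of 19 alternatives.

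MIR663AHG is 1 of 26 measured microRNA host genes named in this way. It was the only one past the threshold in limma, on which it had been chosen, and the median of the 26 was -0.0158. At an unadjusted p under 0.05, 4 of the 26 were higher, MIR663AHG among them, and 1 was lower. Together these are 19.2%, against 7.39% of all transcript clusters. Having MIR663AHG among them, chosen for being higher, raises the 19.2%. MIR2052HG and MIR924HG had the next largest differences, 0.49 (standard error 0.13, adjusted p = 0.400 from limma) and 0.44 (standard error 0.13, adjusted p = 0.469 from limma). The hairpin gene MIR663A was not analysed here. MIR663B, the similarly named locus on chromosome 2, was at 7.83, 7.46 and 7.41 on control arrays 1, 2 and 2d and at 7.66, 7.44 and 7.66 on the silenced arrays. Its groups overlapped, with a difference of 0.02 (standard error 0.13, adjusted p = 0.991 from limma). Since the array measures long RNA from the host transcript, it gives no level of mature miR-663a. Of 10 measured genes of microRNA processing, loading or its control, among them DGCR8 of the nuclear Microprocessor and the TNRC6 partners of Argonaute, 0 passed in limma and 0 had an unadjusted p under 0.05, with differences between -0.18 and 0.10. DROSHA, DICER1 and the Argonaute genes had no transcript cluster matched by symbol, so they were not read.

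The genes next to each lncRNA were chosen by position alone and were not used to pick the members. Taking the 5 nearest named genes on each side gave 50 transcript clusters. In limma 0 of them passed the adjusted threshold, where 0.205% of all transcript clusters did. At an unadjusted p under 0.05, 12 of the 50 passed, where 7.39% of all transcript clusters did. Of these 12, 7 were neighbours of LINC02864, 2 each of LINC02393 and LINC01606, 1 of LINC00619 and 0 of MIR663AHG.

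LINC00619 had a neighbour with a similar pattern. LINC00840, a lncRNA that starts 8.79 kb beyond the end of LINC00619 on the same strand, was at 4.40, 5.34 and 4.68 on control arrays 1, 2 and 2d and at 5.70, 6.33 and 6.32 on the silenced arrays. Control array 2 was high for both genes, and the groups did not overlap. LINC00840 had a difference of 1.31 with a standard error of 0.27. By limma it missed the threshold (adjusted p = 0.229), as it did in each of 19 alternatives. LINC00841, the next gene on that side, had a difference of 0.18 (standard error 0.11, adjusted p = 0.829 from limma), and the chemokine gene CXCL12 beyond it had -0.20 (standard error 0.13, adjusted p = 0.821 from limma). On the other side the pseudogene HNRNPA3P1 and the zinc finger gene ZNF32 had differences of 0.02 and 0.07. Of all 16098 named transcript clusters, 36 passed in limma. Within 5 Mb of LINC00619, a distance chosen after the neighbours were seen, 1 of 46 named transcript clusters did. It was that of ZNF239, a zinc finger gene 271 kb away, which was at 5.15, 5.31 and 5.16 on the control arrays and at 6.13, 6.22 and 6.04 on the silenced arrays. Its difference was 0.93 (standard error 0.090, adjusted p = 0.0188 from limma), and without any single array its adjusted p-values were 0.0589 to 0.103 from limma. The median of the 46 was -0.00063, close to that of all transcript clusters.

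LINC02393 is followed after 16.8 kb by LINC00507 and LINC01606 after 46.6 kb by LINC00588. LINC00507 was at 3.74, 3.65 and 3.16 on the control arrays and at 4.13, 3.95 and 3.89 on the silenced arrays, with a difference of 0.47 (standard error 0.16, adjusted p = 0.564 from limma). LINC00588 was at 2.89, 2.68 and 2.89 on the control arrays and at 3.05, 3.44 and 3.35 on the silenced arrays, and its difference was 0.46 (standard error 0.13, adjusted p = 0.413 from limma). The silenced arrays were above the control arrays in both, but the values of LINC00588 lay below the lower quartile of every array and neither gene passed. LOC286177, which lies between LINC01606 and LINC00588, overlapped between the groups at a difference of -0.02. The named genes nearest to MIR663AHG were the pseudogene NCOR1P1, 72.98 kb away, and on the other side REM1, 5266 kb away, as all 5 neighbours on that side were over 5 Mb off. They had differences of -0.02 and 0.20, and the groups overlapped in both, with NCOR1P1 below the lower quartile of every array.

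**Figure D3:**
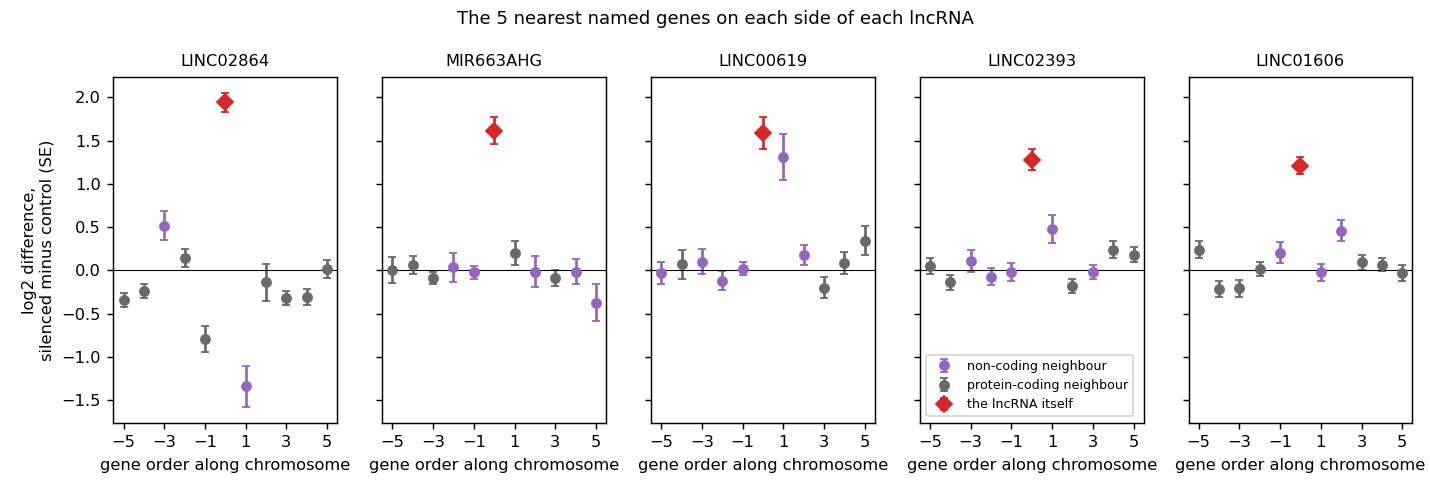
Difference between silenced and control cells (vertical axis, log2, bars: standard error) for each lncRNA (red diamond, place 0) and the 5 nearest named genes on each side in chromosome order (horizontal axis), protein-coding in grey and non-coding in purple. LINC00840 stands at 1.31 beside LINC00619, and NETO1 and LINC02582 stand at -0.79 and -1.34 on either side of LINC02864.

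LINC02864 differed in direction from most of its neighbours. Of its 10 nearest named genes, 3 had a difference above 0 and their median was -0.27. LINC02582, a lncRNA 60.4 kb beyond LINC02864, was at 6.41, 5.78 and 5.64 on control arrays 1, 2 and 2d and at 4.85, 4.73 and 4.24 on the silenced arrays, the opposite order to LINC02864. Its difference was -1.34 (standard error 0.24, adjusted p = 0.143 from limma). NETO1, on the other side at 286.1 kb, encodes an accessory subunit of kainate-type glutamate receptors. It was at 8.97, 8.82 and 8.94 on the control arrays and at 7.93, 7.98 and 8.44 on the silenced arrays, with a difference of -0.79 (standard error 0.15, adjusted p = 0.163 from limma). Neither passed the adjusted threshold in any of 19 alternatives.

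Smaller negative differences were found in genes used by most cells. RTTN, a centrosome gene, had -0.34, TIMM21, a subunit of the mitochondrial import machinery, had -0.31, CYB5A, which encodes cytochrome b5, had -0.31, and SOCS6, a suppressor of cytokine signalling, had -0.24. In each of these 4 genes the 3 silenced arrays lay below the 3 control arrays, and none passed (adjusted p = 0.308, 0.385, 0.500 and 0.579 from limma). Of the 10 nearest genes, 6 were lower and 1 higher without overlap, where 6.27% and 6.43% of all transcript clusters were. The groups overlapped in CBLN2, FBXO15 and C18orf63, with differences of 0.14, -0.14 and 0.02. LINC01541, the other lncRNA among the 10 nearest genes, had 0.52 (standard error 0.17, adjusted p = 0.548 from limma). Within 5 Mb of LINC02864, 23 of 29 named transcript clusters were below 0, with a median of -0.133, and 0 passed in limma. At an unadjusted p under 0.05, 10 of the 29 (34.5%) were lower, against 13.4% of the named transcript clusters on the rest of chromosome 18 and 3.61% of all named ones. Over the rest of chromosome 18, 69.9% of 209 named transcript clusters were below 0, at a median of -0.0686, against 53.7% of all 16098 named ones. Among the 23 chromosomes with at least 100 named transcript clusters, chromosome 18 had the lowest median, -0.0743, followed by chromosome 22 with -0.0553, and that of chromosome X was the highest at 0.0126. The share below 0 was 71.0% of 238 on chromosome 18, 70.1% of 374 on chromosome 22 and 64.8% of 750 on chromosome 7. Such a share was thus not particular to chromosome 18.

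The shift was seen on every array. With each transcript cluster centred on its mean over the 6 arrays, the median within 5 Mb of LINC02864 was 0.0522, 0.0586 and 0.0963 on control arrays 1, 2 and 2d and -0.0877, -0.104 and -0.0631 on silenced arrays 1, 2 and 2d. LINC02864 was thus 3.83-fold higher in a stretch where 23 of 29 named transcript clusters had differences below 0. For the other 4 lncRNAs the medians within 5 Mb were -0.027 for MIR663AHG, -0.00063 for LINC00619, -0.0165 for LINC02393 and 0.0494 for LINC01606. Whether the number of copies of chromosome 18 differed between the cell populations was not tested.

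**Figure D4:**
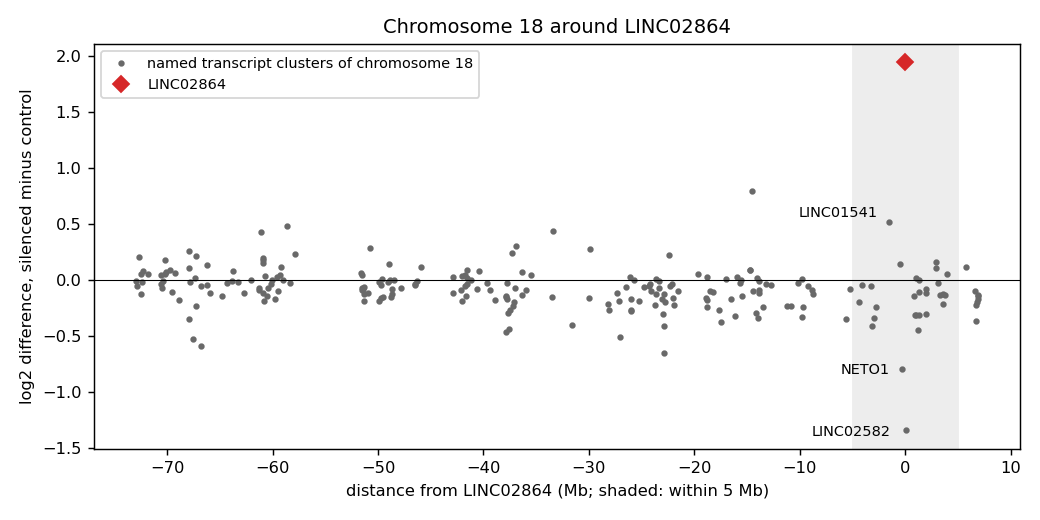
Difference between silenced and control cells (vertical axis, log2) of each named transcript cluster of chromosome 18 (grey points) by its distance from LINC02864 (horizontal axis, Mb, shaded within 5 Mb). LINC02864 lies at 1.94, while 23 of the 29 points in the shaded stretch lie below 0.

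The machinery that holds lncRNA genes silent or removes their transcripts was measured on the same arrays. Of 38 measured genes of DNA methylation, Polycomb, heterochromatin and histone deacetylase complexes, none passed in limma, 1 was higher and 1 lower at an unadjusted p under 0.05, and their median was -0.0119. TET1, which encodes an enzyme that oxidises methylated cytosine on the way to its removal, was at 7.77, 7.68 and 7.36 on control arrays 1, 2 and 2d and at 8.45, 8.62 and 8.44 on the silenced arrays. The groups did not overlap, and the difference of 0.90 (standard error 0.13) fell short of the threshold (adjusted p = 0.0704 from limma). TET1 passed in 4 of 19 alternatives. MBD1, a reader of methylated DNA, had -0.41 (standard error 0.15, adjusted p = 0.590 from limma), and TET2 and MBD2 had differences of -0.18 and -0.16. Of 27 measured genes of the nuclear exosome and related RNA decay, none passed, 2 were higher at an unadjusted p under 0.05, and all lay between -0.19 and 0.26, with RBM7, an adaptor of the exosome, the highest. On simulated arrays, 25.4% of 1.5-fold changes placed in transcript clusters drawn from the whole array were recovered. Small changes in these lists could therefore be missed, but the rate for the lists themselves was not measured.

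As LINC01606 has been tied to Wnt signalling, 18 genes that this pathway switches on were read as well. None passed in limma, 1 was lower at an unadjusted p under 0.05, and the median was -0.0117. AXIN2, a direct target used as a readout of the pathway, had a difference of -0.13 (standard error 0.10, adjusted p = 0.864 from limma). BAMBI, a decoy receptor of the TGF-beta family, was at 5.86, 5.48 and 5.54 on control arrays 1, 2 and 2d and at 4.96, 5.18 and 4.76 on the silenced arrays, and its difference was -0.66 (standard error 0.15, adjusted p = 0.268 from limma). The cyclin D1 gene CCND1, had -0.31 (standard error 0.16, adjusted p = 0.768 from limma).

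Finally, the named genes most like each lncRNA were sought by the root mean square (RMS) difference of their values after centring over the 6 arrays. This likeness follows mainly from the difference between the groups by which the lncRNAs were chosen, and it is a description without a test. LINC01606 was closest to DSCR8 (RMS difference 0.0842, r = 0.992 over 6 arrays), followed by CCDC152 (0.104) and by LINC02393 (0.138). LINC02393 was closest to DSCR8 as well (0.136, r = 0.984), followed by LINC01606 (0.138) and by ATF7IP2 (0.162). LINC01606, LINC02393 and DSCR8, from chromosomes 8, 12 and 21, thus had near-parallel profiles. LINC02864 was closest to the cancer-testis gene CT83 (0.232, r = 0.972), to RYR2, a calcium release channel (0.241), and to MIR663AHG (0.253). MIR663AHG was closest to RYR2 (0.182, r = 0.976), to AMN1 (0.242) and to LINC02864 (0.253). LINC00619 was closest to SMIM10 (0.186, r = 0.976), to the kinase gene STK26 (0.208) and to RYR2 (0.215). RYR2 was thus among the 3 closest for 3 of the 5 lncRNAs.

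Markers listed for SUM159 and for luminal breast cells were read on these arrays. All 8 measured genes of the SUM159 list, among them VIM, CD44, AXL and ZEB1, lay above the upper quartile on every array and none passed in limma. Of 12 genes of luminal breast cells, 1 (XBP1) lay above the upper quartile on every array, 7 lay below the median on every array, and none passed. In the control cells ESR1 and PGR were at 4.34 and 3.82. TFF3, GATA3, SPDEF and KRT19 were at 6.52, 6.28, 6.07 and 5.81 there, above the array median, so the luminal genes were not uniformly low. Between arrays, the SD of the difference over all transcript clusters was 0.267 to 0.306 within a group and 0.290 to 0.328 between the groups.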

How the data were processed

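Total RNA of 3 spinophilin-silenced and 3 control SUM159 samples was linearly amplified with a NuGEN kit, biotin-labelled and read on the Affymetrix Human Gene 2.0 ST array. As deposited, each value is the log2 expression of a transcript cluster, computed by the authors in Partek 6.6 with RMA, which corrects background, equalises the quantiles of all arrays and summarises probes by median polish. The base is not stated and was taken as 2, as the highest value is 13.7. Quantile normalization removes differences in total RNA, so changes are relative to the rest of the array. All 53617 transcript clusters were used without a filter. The platform annotation gave 1 symbol to 16098 of them and several to 0, updated by gene identifier through RefSeq (GRCh38.p14). Of a gene on a list, the transcript cluster with the highest mean was used.

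The comparison of silenced with control arrays had no covariate and used lmFit and eBayes (limma 3.58.1, R 4.3.3), with Benjamini-Hochberg adjustment across all transcript clusters and a threshold of 0.05. The methods of the study name a 2-way test without its second factor. Their threshold was a fold change of at least 1.5 with an unadjusted p under 0.05. With 3 arrays against 3, the smallest p of an exact two-sided permutation test is 0.1. The members and lists were chosen with earlier results of these data known. Named are all members, their 3 most alike genes, the nearest neighbours on each side, list genes past the threshold and otherwise those with the largest differences. Of the nearest neighbours, those before LINC02393 and LINC01606 in chromosome order are not named. ZNF239, AXIN2, the other neighbours and the 5 Mb windows were chosen after their values were seen. On simulated data with 53617 transcript clusters, limma recovered 25.4%, 89.6% and 100.0% of changes of 1.5-fold, 2-fold and 4-fold, with 11 false calls. As alternatives, each array was left out, the replicate label was blocked, arrays 2 and 2d were averaged or treated as a random block, dim or unnamed transcript clusters were dropped, and scaling, variance model and the unmoderated test were varied. Sequences are those of RefSeq on GRCh38.p14 and were read with Python 3.11.15. No groups of 4 or more samples were present, so single arrays were not tested as outliers. The number of arrays limits the precision.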

Additional observations from a re-analysis of the deposited data

How the results depend on the processing

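The direction and the size of the difference of LINC02864, MIR663AHG, LINC00619, LINC02393 and LINC01606 held in each of 19 alternatives, within 1.84 to 2.02, 1.52 to 1.78, 1.45 to 1.75, 1.18 to 1.36 and 1.13 to 1.26. The replicate block, the filters, trend and robust variances and the unmoderated tests cannot change a difference. Only the remaining alternatives bear on its size. The calls of the 5 genes did not hold. Of the 5, the number past the adjusted threshold in limma was 2 with the replicate label as a block (LINC02864 and LINC00619), 0 with arrays 2 and 2d averaged, 0 in the unmoderated test after adjustment with or without the replicate block, where 0 of all transcript clusters passed, and 1 to 2 with 1 array left out. It was 5 in the other 9 alternatives. At the unadjusted threshold of the methods, a rule added after the data were seen, it was 5 with and without the replicate block.

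Over all lncRNAs the 6 higher calls became 2 with the replicate block, 0 with arrays 2 and 2d averaged, 0 in both unmoderated tests and 1 to 2 with 1 array left out, and the 0 lower calls became 1 with arrays 2 and 2d as a random block, above the median filter and with named transcript clusters only. Over all transcript clusters, the 91 higher and 19 lower calls became 39 and 1 with the replicate block, 12 and 0 with arrays 2 and 2d averaged, 166 and 57 with them as a random block, and 0 and 0 in both unmoderated tests. With named transcript clusters only, 58 were higher. Lower calls were 44 above the median filter and 29 with trend and robust variances. Leaving out 1 array gave 15 to 35 higher and 0 to 13 lower. Averaging and leaving out arrays leave fewer samples, and the causes of the other changes were not tested. The random block estimated a correlation of -0.24 between arrays 2 and 2d. With a negative value that fit is no stricter than treating them as separate samples.

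Same-labelled arrays did not deviate together (correlations 0.0118, 1.57e-05 and 0.0926 for labels 1, 2 and 2d), so the labels were not taken to pair the samples. On the described lncRNA list, the 0 calls became 1 with the random block, 1 above the median filter and 2 with named transcript clusters only. On the chromatin list they became 1 with the random block, the median filter, trend and robust variances or named transcript clusters only. The 1 host gene call, MIR663AHG, became 0 with the replicate block, with arrays averaged and in both unmoderated tests, and 0 to 1 with 1 array left out. Calls of the neighbours and of the RNA decay, microRNA processing and Wnt lists stayed at 0. The median within 5 Mb of LINC02864, added after the data were seen, was -0.181 to -0.107 with 1 array left out.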
